A study of Mus musculus with 6 samples.

Results

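The mitochondrially encoded genes were taken as every gene of the deposited table whose symbol begins with mt-, which gave 37 of 55291 genes: 2 rRNA genes, 13 protein-coding genes and 22 tRNA genes. They were followed in 6 bulk RNA-seq libraries from tumours that the mouse glioblastoma line CT2A formed under the skin, 3 of them in Siglece knockout hosts (KO) and 3 in wild-type hosts (WT). The labels give the tissue as a subcutaneous tumour but the source as brain, and the first was followed. They state no age, sex, strain or making of the knockout, and not that each library is from another animal, so that the spread behind each p-value is that between samples and may be technical. By the labels' protocol, small numbers of CT2A cells were sampled, and Smart-seq2, which primes cDNA on poly(A) tails and does not keep strand, was used; no sort is named. Library totals ran from 24369359 to 40574093 counts. Throughout, 3 values of a group stand in the order of replicates 1, 2 and 3, numbers that only name a library. Siglece, which encodes an inhibitory receptor of myeloid cells, had 0, 8 and 0 counts in KO and 74, 99 and 64 in WT.

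The mitochondrial genome is a small circular DNA present in many copies per cell. Both of its strands, called heavy and light, are transcribed as long precursors, and most of the tRNAs lie between the other genes, where their excision frees the rRNAs and mRNAs. The 13 proteins are core subunits of respiratory chain complexes I, III and IV and of ATP synthase (complex V), and the rRNAs and tRNAs serve the ribosomes that translate them. Stretches of mitochondrial DNA have also been copied into the nuclear chromosomes, where they are annotated as pseudogenes.

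Mitochondrial genes took a larger share of the counts in each KO library than in any WT library. They held 1.92%, 2.11% and 4.40% of all counts in KO, and 0.717%, 1.13% and 1.11% in WT. KO replicate 3 stood well above the other KO libraries, and WT replicate 1 was the lowest of the 6. The mean was 2.81 ± 1.38% in KO and 0.985 ± 0.233% in WT (SD, n = 3 each; exact two-sided permutation p = 0.1, the smallest that 3 against 3 libraries can give). Without KO replicate 3 the KO mean was 2.02%, and the ratio to the WT mean fell from 2.85 to 2.05.

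The 3 classes were very unequal in size, and the smaller classes differed more between libraries. The 13 protein-coding genes held 574835, 669576 and 1021637 counts in KO and 284274, 348428 and 325409 in WT. As shares these were 1.87%, 2.08% and 4.19% in KO and 0.701%, 1.12% and 1.10% in WT, so that this class set the total. The KO mean share was 2.79 times the WT mean (exact permutation p = 0.1).

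The 2 rRNA genes held 13444, 8275 and 40751 counts in KO and 5627, 3080 and 2453 in WT. Their shares were 0.0438%, 0.0257% and 0.167% in KO and 0.0139%, 0.00992% and 0.00827% in WT. The groups did not overlap, and KO replicate 3 was 4.81 times the mean of the other KO libraries. The KO mean was 7.39 times the WT mean over all libraries (exact permutation p = 0.1) and 3.25 times without KO replicate 3.

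The 22 tRNA genes together held 1792, 1130 and 10423 counts in KO and 1064, 427 and 388 in WT. Their shares were 0.00583%, 0.00351% and 0.0428% in KO and 0.00262%, 0.00137% and 0.00131% in WT. The groups did not overlap, KO replicate 2 lay closest to WT, and KO replicate 3 was 9.15 times the mean of the other KO libraries. The KO mean was 9.83 times the WT mean (exact permutation p = 0.1) and 2.64 times without KO replicate 3.

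**Figure D1:**
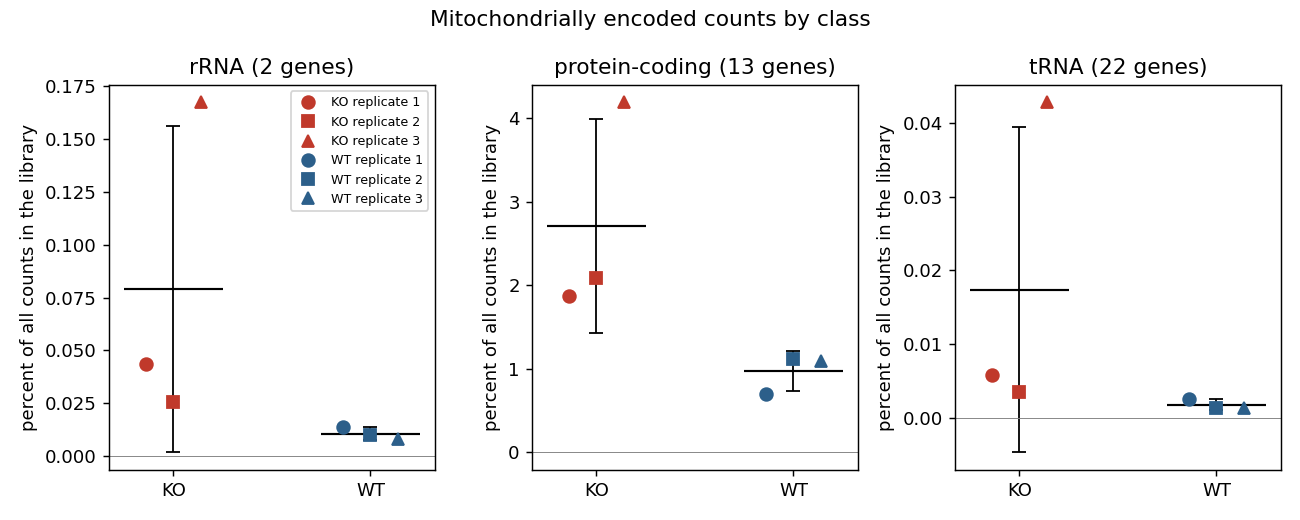
Share of all counts of a library (percent, linear axes with a different range in each panel) held by the mitochondrial rRNA, protein-coding and tRNA genes; points are libraries, horizontal lines are means and bars are SD over 3 libraries. KO replicate 3 is the highest point in each panel, at 0.167%, 4.19% and 0.0428%.

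Within the mitochondrial counts the groups overlapped for each of the 3 classes. Protein-coding genes held 95.2% to 98.6% of mitochondrial counts in KO and 97.7% to 99.1% in WT. The rRNA genes held 2.28%, 1.22% and 3.80% in KO and 1.93%, 0.875% and 0.747% in WT (exact permutation p = 0.2). The tRNA genes held 0.304%, 0.166% and 0.972% in KO and 0.366%, 0.121% and 0.118% in WT (exact permutation p = 0.5). For both classes WT replicate 1 lay above KO replicate 2, so the groups overlapped.

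Each gene was then compared between KO and WT with the quasi-likelihood test of edgeR, fitted on the 18621 genes that passed a filter on low counts, with p-values adjusted by the Benjamini-Hochberg method over all of them and a threshold of 0.05. Of the 37 mitochondrial genes, 22 passed the filter: both rRNA genes, all 13 protein-coding genes and 7 tRNA genes. Of these, 5 rose in KO (22.7%), where 11.2% of all tested genes were called higher, and 0 fell, where 0.226% of all tested genes were called lower. At an unadjusted p under 0.05, 16 were higher (72.7%, against 22.2% of all tested genes) and 0 lower (against 9.57%). The 5 genes were mt-Rnr2, mt-Nd1, mt-Nd5, mt-Ta and mt-Tp. The log2 fold change was positive for 20 of the 22, with a median of 2.27 beside a median of -0.05 over all tested genes. In shares of library counts, 16 of the 22 had every KO library above every WT library (72.7%), against 23.6% of all tested genes, and 1, mt-Th, had every KO library below, against 18.3%. On TMM-scaled library sizes mt-Nd3, mt-Nd6 and mt-Th overlapped between the groups. In shares, over all 37 members, 22 had KO above WT, 1 had KO below and 14 overlapped. These numbers take in untested tRNA genes with few counts, such as mt-Tq at 5, 2 and 1 in KO and 1, 0 and 0 in WT. The matching shares over all genes of the table were not computed, so these numbers have no background to be read against.

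The number called moved with the settings and with the libraries in the fit. With edgeR it was 3 under RLE scaling (9.66% of all genes higher), 4 without composition scaling (9.19%), 13 of 34 with no low-count filter (8.71%) and 6 of 20 with a stricter one (13.3%). DESeq2 called 16 of the 22 higher, where it called 17.6% of all genes higher, and limma-voom called 2, mt-Rnr2 and mt-Nd1, where it called 5.31%. With edgeR, 16 members were called without KO replicate 2, where 22.7% of all genes were called higher. They were 2 without KO replicate 3 (mt-Rnr2 and mt-Tp; 4.85% of all genes). None was called when KO replicate 1 or any of the WT libraries was left out, and in those 4 fits 0 genes of the whole table were called. No member was called lower in any of these fits, where the share of all genes called lower was 0.306% with RLE, 0.129% without composition scaling, 1.44% with no filter, 0.258% with the stricter one, 0.166% with limma-voom and 6.7% with DESeq2. It was 18.5% when KO replicate 2 was left out and 0.0309% when KO replicate 3 was. At an unadjusted p under 0.05 the 4 fits with 0 calls gave 17, 16, 12 and 12 members. The median log2 fold change of the members tested was 1.17 when KO replicate 3 was left out and 2.71 in the fit that lacked KO replicate 2.

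**Figure D2:**
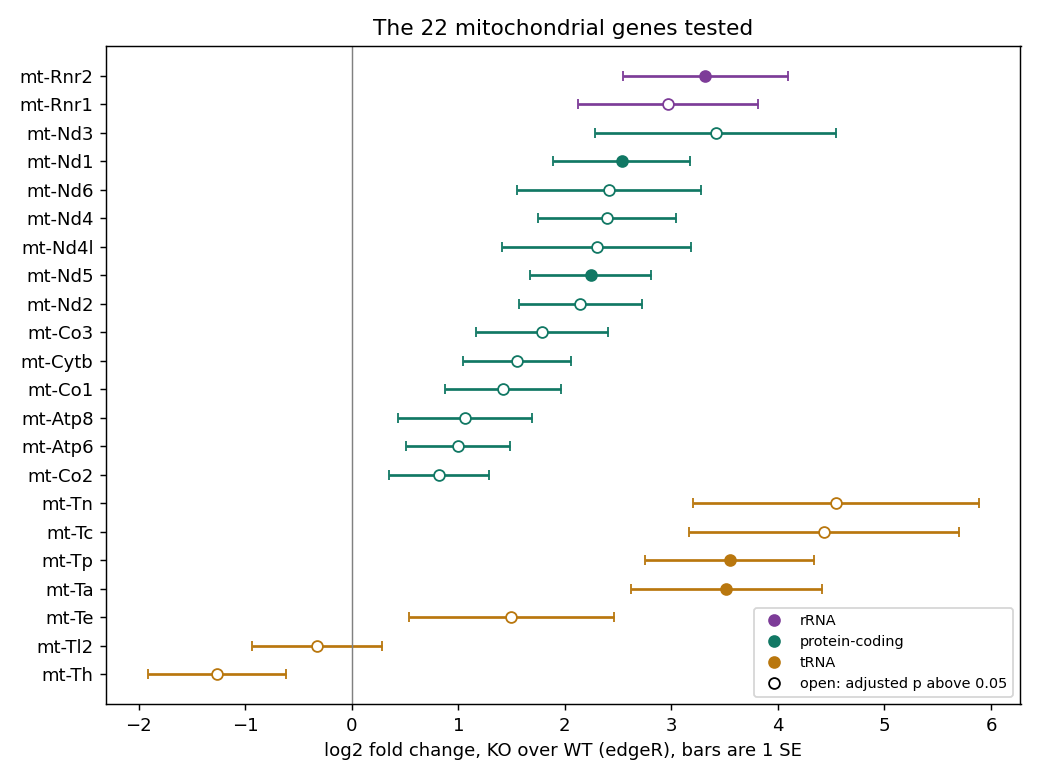
Log2 fold change of KO over WT (edgeR) for the 22 mitochondrial genes tested, grouped by class; bars are 1 SE and filled points have an adjusted p at or below 0.05. The filled points are mt-Rnr2, mt-Nd1, mt-Nd5, mt-Tp and mt-Ta, and mt-Tl2 and mt-Th lie below 0.

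The rRNA genes lie side by side near the start of the heavy-strand precursor (chrM:70-1024 and chrM:1094-2675, mm10), parted by the tRNA gene mt-Tv. mt-Rnr1, the 12S rRNA of the small mitochondrial ribosomal subunit (ENSMUSG00000064337.1), had 8004, 4131 and 22638 counts in KO and 3845, 1701 and 1349 in WT. Its share was higher in each KO library than in any WT library, but it did not pass the test (log2 fold change 2.97, SE 0.85, adjusted p = 0.0610, edgeR). mt-Rnr2, the 16S rRNA of the large subunit (ENSMUSG00000064339.1), had 5440, 4144 and 18113 counts in KO and 1782, 1379 and 1104 in WT. It rose with a log2 fold change of 3.32 (SE 0.77, adjusted p = 0.0347, edgeR), which became 1.88 without KO replicate 3 (adjusted p = 0.0454). Without that library mt-Rnr1 was at 1.56. The count ratio of mt-Rnr1 to mt-Rnr2 was 1.47, 0.997 and 1.25 in KO and 2.16, 1.23 and 1.22 in WT, with WT replicate 1 apart from the rest. Mature mitochondrial rRNAs carry short A tails, and per length they stood below the abundant mRNAs: mt-Rnr1 was at 460 ± 449 and 68.1 ± 27.4 CPM (counts scaled to the library total) per kilobase in KO and WT (SD, n = 3), and mt-Co1 at 8643 ± 2699 and 3762 ± 1342.

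Complex I, the NADH dehydrogenase that feeds electrons into the chain, takes 7 of the 13 proteins. mt-Nd1 (chrM:2751-3707) had 58172, 60072 and 142018 counts in KO and 27944, 19980 and 17722 in WT. Its shares of the library, 0.189%, 0.187% and 0.583% in KO, were above the WT values of 0.0689%, 0.0643% and 0.0597%, and it rose with a log2 fold change of 2.53 (SE 0.64, adjusted p = 0.0436, edgeR). Without KO replicate 3 its log2 fold change was 1.54 and the call was lost (adjusted p = 0.0639).

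mt-Nd5 (chrM:11742-13565) had 32551, 30819 and 67790 counts in KO and 12932, 13312 and 13500 in WT, and its WT counts were close to each other. It rose with a log2 fold change of 2.24 (SE 0.57, adjusted p = 0.0441, edgeR), which became 1.37 (adjusted p = 0.0622) without KO replicate 3, and under RLE scaling its adjusted p was 0.0504. mt-Nd2 (chrM:3914-4951) and mt-Nd4 (chrM:10167-11544) missed the threshold narrowly, with log2 fold changes of 2.15 (SE 0.58, adjusted p = 0.0520, edgeR) and 2.40 (SE 0.65, adjusted p = 0.0524). Both had KO shares above all WT shares, at 29807, 31257 and 67774 counts against 14887, 12701 and 14267 for mt-Nd2 and at 34903, 32834 and 89800 against 17289, 13224 and 13575 for mt-Nd4. Without KO replicate 3 the log2 fold changes were 1.23 and 1.32. Both passed with the stricter low-count filter, which tested fewer genes.

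mt-Nd6 (chrM:13552-14070) is the protein gene of the light strand and overlaps the end of mt-Nd5 by 14 bases. It had 14095, 10806 and 45922 counts in KO and 12988, 3956 and 3676 in WT. In shares the highest WT library, WT replicate 1 at 0.0320%, came close to KO replicate 2 at 0.0336%, and the gene did not pass (log2 fold change 2.41, SE 0.86, adjusted p = 0.107, edgeR; 1.00 without KO replicate 3). The ratio of mt-Nd6 to mt-Nd5 counts was 1.00 in WT replicate 1 and 0.297 and 0.272 in WT replicates 2 and 3, and 0.433, 0.351 and 0.677 in KO. Since strand was not kept, reads from the other strand of the mt-Nd6 region cannot be told apart from those of the gene.

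Complex III, which passes electrons to cytochrome c, has mt-Cytb (chrM:14145-15288) as its mitochondrial subunit. It had 92358, 118244 and 162983 counts in KO and 55937, 60164 and 58884 in WT. Every KO share, from 0.301% to 0.669%, was above every WT share, from 0.138% to 0.198%, and the gene did not pass the test (log2 fold change 1.55, SE 0.51, adjusted p = 0.0887, edgeR; 0.94 without KO replicate 3).

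Complex IV is cytochrome c oxidase, which reduces oxygen to water, and mt-Co1 (chrM:5328-6872) encodes its catalytic subunit. mt-Co1 had more counts than any other mitochondrial gene in each library, at 310492, 382583 and 440026 in KO and 139051, 223393 and 202322 in WT. It made up 52.6%, 56.3% and 41.0% of mitochondrial counts in KO and 47.8%, 63.5% and 61.6% in WT, so that its weight was lowest in KO replicate 3 and next lowest in WT replicate 1. Its share of the library was higher in each KO library (1.01% to 1.81%) than in WT (0.343% to 0.719%), but it did not pass (log2 fold change 1.42, SE 0.54, adjusted p = 0.125, edgeR). The count ratio of mt-Nd1 to mt-Co1 was 0.187, 0.157 and 0.323 in KO and 0.201, 0.0894 and 0.0876 in WT. Complex I genes together held 29.5%, 24.8% and 40.6% of protein-coding counts in KO and 30.3%, 18.2% and 19.3% in WT, with overlapping groups (exact permutation p = 0.3).

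The order of levels per length was much the same in each library. mt-Co1 ranked first in all 6, and mt-Cytb came next in 5; the exception was KO replicate 3, where mt-Nd1 stood at 6090 and mt-Cytb at 5846 CPM per kilobase. Below them mt-Nd2 stood above mt-Nd4, and mt-Nd4 above mt-Nd5, in each library, while mt-Nd6 changed its place among them. In the order mt-Nd6, mt-Nd2, mt-Nd4 and mt-Nd5, the KO means were 1721 ± 1658, 1517 ± 1007, 1413 ± 1093 and 877 ± 562 CPM per kilobase (SD, n = 3). The WT means of the same genes were 367 ± 216, 403.5 ± 55.5, 317 ± 13.2 and 220 ± 39.6. In KO the means of neighbours in this order lay within each other's spread between libraries, with KO replicate 3 the highest for each gene. Within libraries mt-Nd4 was above mt-Nd5 in both groups. The values were 825 and 581, 741 and 525, and 2674 and 1525 in KO, and 309 to 332 and 175 to 249 in WT. In KO replicate 3 mt-Nd2 and mt-Nd4 were nearly level, at 2679 and 2674.

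The other 6 protein-coding genes, mt-Co2, mt-Atp8, mt-Atp6, mt-Co3, mt-Nd3 and mt-Nd4l, follow each other from chrM:7013 to chrM:10173 and had few counts. They held 2457, 2961 and 5324 counts together in KO and 3246, 1698 and 1463 in WT. That was 0.427%, 0.442% and 0.521% of protein-coding counts in KO and 1.14%, 0.487% and 0.450% in WT. In each library the highest of the 6 was below the lowest of the other 7: the 6 ran from 0.581 to 135 and the 7 from 175 to 11687 CPM per kilobase over all libraries. All 6 are transcribed on the same long heavy-strand RNA as their neighbours mt-Co1 and mt-Nd4. These 6 were set apart after their values were seen.

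Among them mt-Co2, a complex IV subunit that takes electrons from cytochrome c, had 1286, 1715 and 1926 counts in KO and 2176, 823 and 808 in WT, with WT replicate 1 the highest of all. mt-Co3, the third mitochondrial subunit of that complex, had 424, 509 and 1172 counts in KO and 452, 223 and 224 in WT. mt-Nd4l, of complex I, had 73, 40 and 146 counts in KO and 7, 38 and 31 in WT. The ATP synthase genes overlap each other by 43 bases. mt-Atp6 had 409, 502 and 821 counts in KO and 442, 493 and 285 in WT, and mt-Atp8 had 103, 67 and 115 in KO and 27, 78 and 79 in WT. In shares of the library mt-Co2, mt-Atp6 and mt-Atp8 overlapped between the groups. As a share of protein-coding counts the ATP synthase pair was lower in each KO library, at 0.0891%, 0.0850% and 0.0916%, than in WT, at 0.165%, 0.164% and 0.112% (exact permutation p = 0.1, the smallest possible).

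**Figure D3:**
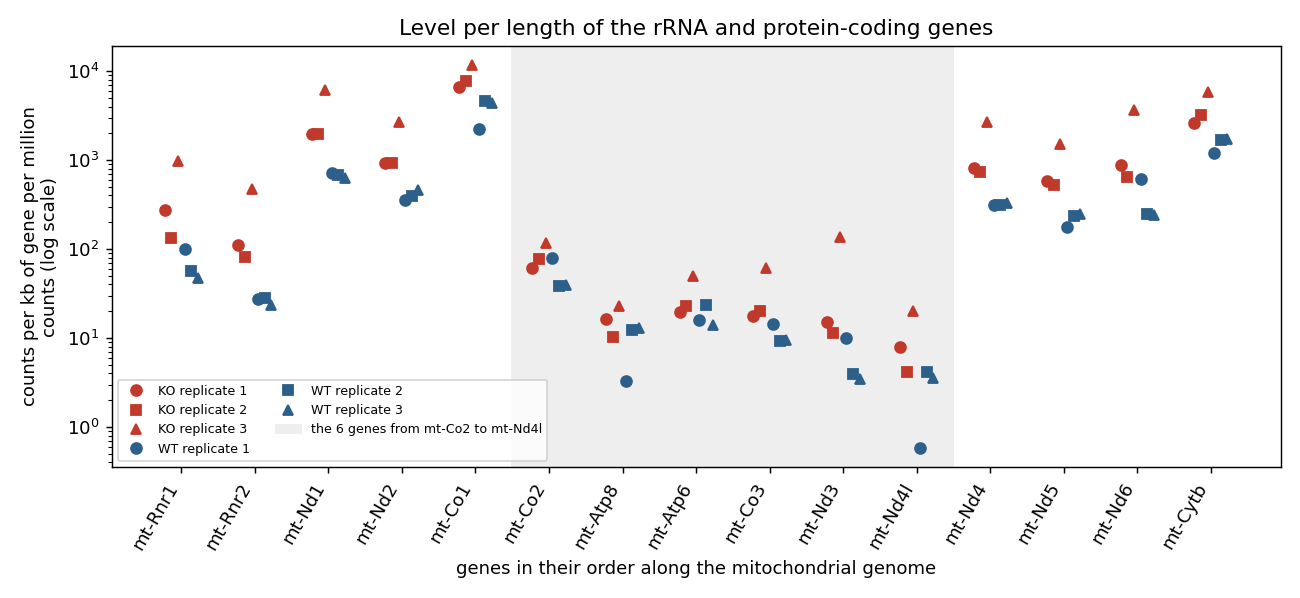
CPM per kilobase of gene (log axis) for the 2 rRNA and 13 protein-coding genes in their order along the mitochondrial genome; points are libraries and the shaded band marks the 6 genes from mt-Co2 to mt-Nd4l. In each library the shaded genes lie below every other protein-coding gene, at 135 or less against 175 or more.

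The same stretch has a near-identical nuclear copy. A search of the GENCODE M21 transcripts for matches of at least 95% identity over at least 100 bases found 11 nuclear pseudogenes that resemble 9 mitochondrial genes. Of these, 7 lie in a row at chr1:24611535-24616197 (mm10), in mirror order on the minus strand. Gm28661 matched mt-Co2, Gm10925 matched mt-Atp6, Gm28437 matched mt-Co3 and Gm10222 matched mt-Nd4l, each at 100% identity over at least 99.0% of the gene. Gm28438 matched mt-Nd3 at 99.7%. Gm29216 and Gm28439 matched 31.3% of mt-Co1 and 63.6% of mt-Nd4, and mt-Atp8 lies between the stretches matched by Gm28661 and Gm10925. The other 4 pseudogenes, Gm13339, Gm13340, Gm13341 and Gm4076, differ from their mitochondrial genes at 16 to 45 bases. How the authors treated reads that align to more than 1 place is not given in the sources used here, and its part in the low counts of the 6 genes was not tested.

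The 7 pseudogenes on chromosome 1 had few counts too. They held 2197, 3542 and 3987 counts together in KO and 4654, 1699 and 1649 in WT. For 3 of the 4 pairs of identical sequence the counts were split rather evenly. mt-Co2 held 53.0% to 60.9% of the counts of mt-Co2 and Gm28661 over the 6 libraries, mt-Atp6 held 49.1% to 64.1% of those shared with Gm10925, and mt-Co3 held 45.8% to 61.8% of those shared with Gm28437. The groups did not overlap for mt-Co3, with KO higher (54.6% to 61.8% against 45.8% to 54.0%, exact permutation p = 0.1, the smallest possible). For mt-Atp6 they were barely apart, with KO at 49.1% to 50.6% and WT at 50.6% to 64.1% (exact permutation p = 0.1). KO replicate 3, at 50.617%, and WT replicate 3, at 50.622%, were all but equal there. None of the 6 genes passed the test between KO and WT with edgeR. At an unadjusted p under 0.05 mt-Co3 (1.78, SE 0.62), mt-Nd3 (3.41, SE 1.13) and mt-Nd4l (2.30, SE 0.89) were higher on the log2 scale, and DESeq2 called these 3. Without KO replicate 3 these values were 0.74, 1.11 and 1.29. On the log2 scale mt-Co2 differed by 0.82 (SE 0.47), mt-Atp6 by 1.00 (SE 0.48) and mt-Atp8 by 1.06 (SE 0.63). With the handling of such reads unknown, counts of the 6 genes are given as reads placed there and not as levels of the RNAs.

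mt-Nd3, a complex I subunit, stood apart from the other pairs. Its start and that of its copy Gm28438 are shown because they differ at the single base, printed in capitals, that parts the 2 sequences over the 345 aligned bases. Read 5′ to 3′, these are the first 30 bases of the genes in GENCODE M21 (mm10), from chrM:9459 for mt-Nd3 and from the minus strand of chr1:24612775-24613119 for Gm28438.
mt-Nd3: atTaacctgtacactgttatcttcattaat
Gm28438: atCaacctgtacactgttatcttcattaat
Counted from the first base of the gene, the difference is T3C, at position 9461 of the mitochondrial genome. This base is known to vary among inbred mouse strains, and the labels give no strain for the hosts or the line.

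A larger part of the counts of this pair lay on the mitochondrial gene in each KO library than in any WT library. mt-Nd3 had 162, 128 and 1144 counts in KO and 142, 43 and 36 in WT. Gm28438 had 103, 324 and 72 in KO and 772, 177 and 236 in WT. The share of the pair's counts on mt-Nd3 was 61.1% in KO replicate 1 (95% exact interval 55.0% to 67.0%), 28.3% in KO replicate 2 (24.2% to 32.7%) and 94.1% in KO replicate 3 (92.6% to 95.3%). It was 15.5% (13.2% to 18.0%), 19.5% (14.5% to 25.4%) and 13.2% (9.44% to 17.9%) in WT. These intervals cover counting error only.

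The WT libraries thus lay together, and the KO libraries spread from just above them to nearly all counts on mt-Nd3. The mean was 61.2 ± 32.9% in KO and 16.1 ± 3.19% in WT (SD, n = 3; exact two-sided permutation p = 0.1, the smallest possible). This split was chosen for display after its values were seen. The difference of the means was 45.1 percentage points and 28.6 without KO replicate 3. Gm28438 did not pass the test between the groups (log2 fold change -1.02, SE 0.65, adjusted p = 0.296, edgeR).

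mt-Nd4l and Gm10222 had no base difference over 294 aligned bases, yet their split was also uneven. The share on mt-Nd4l was 59.3%, 26.3% and 72.6% in KO and 6.86%, 41.3% and 43.7% in WT, from 71 to 201 counts for the pair. The groups overlapped here (exact permutation p = 0.3). mt-Nd4l overlaps mt-Nd4 by 7 bases.

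**Figure D4:**
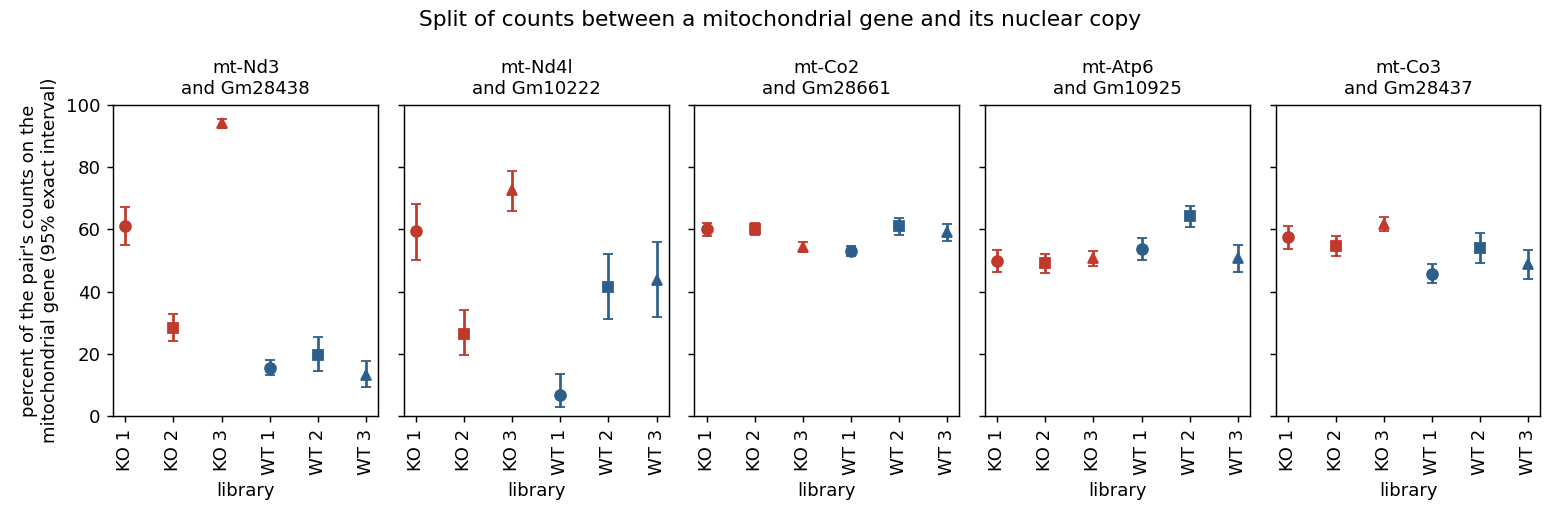
Percent of the summed counts of a mitochondrial gene and its chromosome 1 copy that were placed on the mitochondrial gene, for 5 pairs and 6 libraries; bars are 95% exact binomial intervals. For mt-Nd3 the KO libraries run from 28.3% to 94.1% and the WT libraries from 13.2% to 19.5%, while the mt-Co2 pair stays between 53.0% and 60.9%.

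Counts of the tRNA genes were concentrated on a few of them. Of the 22, 3 (mt-Tf, mt-Td and mt-Tk) had 0 counts in all libraries, where 3 counts stood for 0.0739 to 0.123 CPM, and 10 had 50 counts or fewer over the 6 libraries. mt-Tn, mt-Tc and mt-Tp held 89.7%, 83.0% and 96.8% of tRNA counts in KO and 60.7%, 63.5% and 49.7% in WT. These 3 are on the light strand, with 5 others that held few counts, and the 8 light-strand genes held 94.8%, 86.5% and 97.9% in KO and 64.3%, 66.3% and 54.6% in WT. Each KO library was above each WT library in both shares, which were looked at after the counts were seen and not tested. In WT replicate 3 the gene with the most counts was mt-Tl2 of the heavy strand, at 121. Summed over the 6 libraries the 3 genes held 90.3% and the 8 genes 92.3%, sums in which KO replicate 3 supplied 10423 tRNA counts against 388 to 1792 in each other library. Mature tRNAs have no poly(A) tail of the kind that Smart-seq2 primes on, and which RNAs gave these reads cannot be told from gene counts.

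Most tRNA genes touch their neighbours, with gaps or overlaps of a few bases. mt-Tn and mt-Tc flank the 32 bases that hold the origin of light-strand replication, and beyond mt-Tp lies the control region, in which the table has no gene. mt-Tf, on the far side of that region, was at 0. The sequences of mt-Tn, mt-Tc and mt-Tp are printed because they carry most of the tRNA counts in 5 of the 6 libraries, and that of mt-Tl2 because it led the heavy-strand tRNA genes. They are read 5′ to 3′ along the tRNA, from GENCODE M21 (mm10), with the anticodon in capitals, at chrM:5089-5159, chrM:5192-5257 and chrM:15356-15422 on the minus strand and chrM:11671-11741 on the plus strand.
mt-Tn: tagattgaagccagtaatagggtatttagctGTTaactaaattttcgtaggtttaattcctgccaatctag
mt-Tc: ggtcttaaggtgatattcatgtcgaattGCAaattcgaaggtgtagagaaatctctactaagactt
mt-Tp: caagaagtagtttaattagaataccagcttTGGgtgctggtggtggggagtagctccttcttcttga
mt-Tl2: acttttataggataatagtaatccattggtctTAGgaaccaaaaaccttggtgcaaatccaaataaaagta

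mt-Tn, the asparagine tRNA, had 800, 393 and 6925 counts in KO and 400, 101 and 88 in WT. KO replicate 3 alone held most of the counts of this gene, and of the other KO shares that of KO replicate 2, 0.00122%, lay closest to the highest WT share, 0.000986% in WT replicate 1, with KO replicate 1 at 0.00260%. It did not pass (log2 fold change 4.54, SE 1.34, adjusted p = 0.0678, edgeR), and the log2 fold change was 1.77 without KO replicate 3. mt-Tc, the cysteine tRNA, had 157, 87 and 1088 counts in KO and 69, 15 and 18 in WT (log2 fold change 4.43, SE 1.26, adjusted p = 0.0610, and 0.184 without KO replicate 3). The ratio of mt-Tn to mt-Tc counts stayed between 4.52 and 6.73 in the 6 libraries.

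mt-Tp, the proline tRNA, rose, with 650, 458 and 2079 counts in KO and 177, 155 and 87 in WT. The log2 fold change by edgeR was 3.55 (SE 0.79, adjusted p = 0.0318), and 2.12 without KO replicate 3 (adjusted p = 0.0455). mt-Ta, the alanine tRNA, rose on few counts, 43, 12 and 26 in KO and 1, 4 and 4 in WT (log2 fold change 3.52, SE 0.90, adjusted p = 0.0449, edgeR). It missed the threshold under RLE and without composition scaling. mt-Te, the glutamate tRNA, had 21, 16 and 49 counts in KO and 32, 4 and 9 in WT, with overlapping groups, and did not pass (adjusted p = 0.299, edgeR).

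The heavy-strand tRNA genes mt-Th, mt-Ts2 and mt-Tl2, which carry histidine, serine and leucine and lie in a row before mt-Nd5, were not called. mt-Tl2 had 54, 115 and 128 counts in KO and 292, 99 and 121 in WT. By edgeR it differed by -0.33 on the log2 scale (SE 0.61, adjusted p = 0.722), and by 0.23 without WT replicate 1. mt-Th had 11, 13 and 20 counts in KO and 65, 34 and 47 in WT, with each KO share below each WT share, and did not pass (log2 fold change -1.27, SE 0.65, adjusted p = 0.208, edgeR). mt-Ts2, at 0 to 8 counts per library, was not tested.

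With edgeR on all libraries, none of the listed nuclear genes that work with the mitochondrial genome was called. Of 212 tested nuclear genes of mitochondrial energy metabolism and gene expression, 0 passed in either direction with edgeR and with limma-voom. Over all genes edgeR called 11.2% higher and 0.226% lower, and limma-voom 5.31% and 0.166%. DESeq2 called 16 of the 212 lower (7.55%, against 6.7% of all genes) and 0 higher (against 17.6%). Without KO replicate 2, edgeR called 37 lower (17.5%, against 18.5% of all genes) and 4 higher (1.89%, against 22.7%). The shares called lower were thus near those of all genes. At an unadjusted p under 0.05, 33 were lower (15.6%, against 9.57% of all tested genes) and 1 higher (0.472%, against 22.2%), and 173 (81.6%) had a negative log2 fold change, against 51.7% of all tested genes. Their median log2 fold change was -0.40, beside -0.05 over all tested genes and 2.27 for the mitochondrial genes. Without WT replicate 1 it was -0.10, beside 0.01 and 2.40.

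Among the respiratory chain subunits encoded in the nucleus, the medians were -0.30 for 36 genes of complex I, -0.13 for 9 of complex III, -0.26 for 11 of complex IV and -0.41 for 16 of ATP synthase. Without WT replicate 1 these medians were 0.21, -0.11, 0.25 and -0.03, beside 0.01 over all tested genes. With all libraries complex II, which has no mitochondrially encoded subunit, had a median of 0.28 over 4 genes. Those with the smallest p of their complex were Ndufa12 (log2 fold change -1.02, SE 0.41), Cyc1 (-0.97, SE 0.36), the cytochrome c1 gene, Ndufa4 (-1.18, SE 0.41) and Atp5g1 (-1.05, SE 0.42), with an adjusted p of 0.137 for Ndufa12 and 0.117 for Cyc1 (edgeR). For mitochondrial ribosomal proteins, 68 of 76 log2 fold changes were negative, with a median of -0.50, and Mrpl22 had the smallest p (-1.18, SE 0.37, adjusted p = 0.0801). The median of these proteins was -0.16 without WT replicate 1.

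Genes that copy, transcribe and process the mitochondrial genome had mostly negative log2 fold changes as well. Tfam, which packages mitochondrial DNA and starts its transcription, was at 31.3, 52.4 and 25.9 CPM in KO, below 93.6, 62.0 and 61.9 CPM in WT, on TMM-scaled library sizes (log2 fold change -0.99, SE 0.34, adjusted p = 0.102, edgeR). Supv3l1, a helicase of mitochondrial RNA decay, was at 16.4 ± 9.83 and 34.7 ± 0.173 CPM, and Trnt1, which adds the CCA end to tRNAs, at 41.3 ± 8.83 and 69.3 ± 4.21 CPM. Tk2, a mitochondrial thymidine kinase, was at 52.0 ± 24.2 and 22.2 ± 5.25 CPM (log2 fold change 1.23, SE 0.41, adjusted p = 0.0943) and was the gene of these lists higher in KO at an unadjusted p under 0.05. Of 12 replication, 10 transcription and 30 RNA processing genes, 10, 7 and 24 had a negative log2 fold change.

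The balance of mitochondrial to nuclear subunit counts differed between the groups. The 13 mitochondrial genes had 3.34, 2.74 and 4.86 times the counts of the nuclear subunits of complexes I, III, IV and V in KO, and 0.490, 1.32 and 1.27 times in WT. The means were 3.65 ± 1.09 and 1.03 ± 0.468 (SD, n = 3; exact permutation p = 0.1, the smallest possible). By complex, the ratio was 3.19, 2.49 and 6.11 against 0.514, 0.910 and 0.945 for complex I. It was 4.44, 3.88 and 6.60 against 0.695, 1.75 and 1.76 for complex III. For complex IV it was 8.52, 8.20 and 8.18 against 1.10, 4.50 and 4.26, so that the KO libraries were alike for this complex and differed for complex I. WT replicate 1 had the lowest ratio for each complex, and its nuclear subunits held 1.43% of counts against 0.561% to 0.862% in the other 5 libraries.

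**Figure D5:**
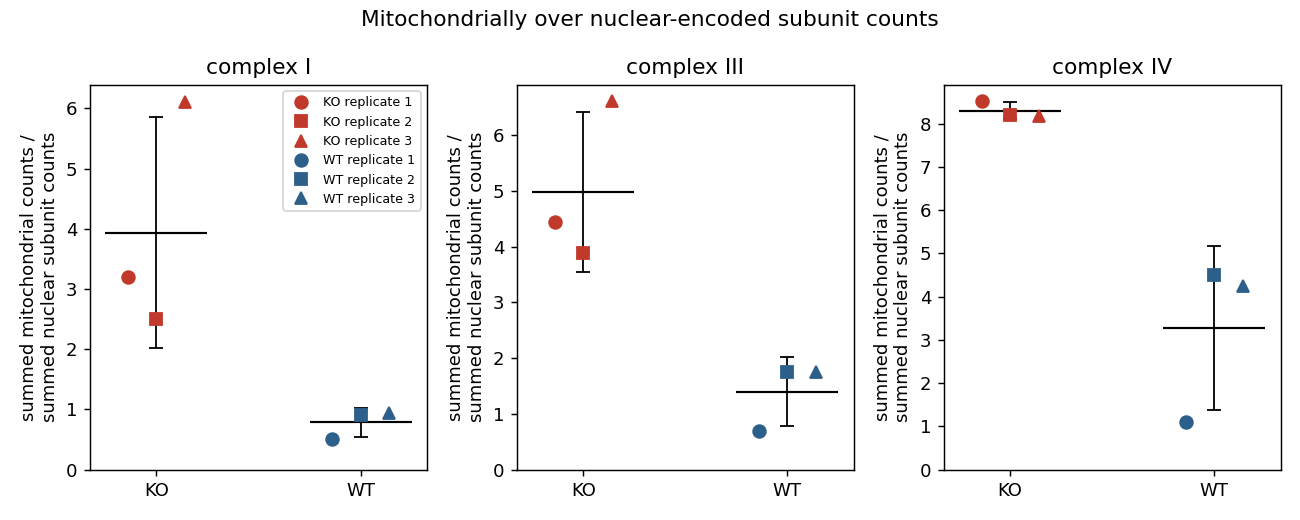
Summed counts of the mitochondrially encoded subunits divided by summed counts of the nuclear subunits of the same complex, for complexes I, III and IV; points are libraries, lines are means and bars SD over 3 libraries. Every KO point lies above every WT point, and for complex IV the KO points lie between 8.18 and 8.52.

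Markers of several other cell types were higher in KO too. The calls below are those of edgeR, which called 11.2% of all tested genes higher and 0.226% lower. Summed fibroblast markers stood at 38634, 12358 and 27130 CPM in KO, against 2279 to 3643 CPM in WT, with 7 of 7 genes called higher, and those of macrophages at 7557, 2497 and 8352 CPM in KO, against 1021 to 1730 CPM in WT, with 8 of 10 called higher. Markers of skeletal muscle, a tissue rich in mitochondria, were at 1209, 369 and 2482 CPM in KO, against 97.7 to 236 CPM in WT, with 8 of 10 called higher, and those of fat cells at 139, 63.1 and 908 CPM in KO, against 21.2 to 39.5 CPM in WT, with 2 of 7. Markers of brown fat were at or below 18.2 CPM in each library, with 0 of 3 tested called, and 0 of the markers of these 5 lists was at 0 in all libraries. T cell markers had 9 of 10 called higher, endothelial 6 of 7, B and plasma cell 4 of 6 tested, neutrophil 1 of 3 tested, keratinocyte 0 of 2 tested and erythroid 0 of 5, the last at 12.8, 31.4 and 279 CPM in KO, against 11.1 to 43.7 CPM in WT. Neural and glioma markers were at 1587, 3705 and 1717 CPM in KO, against 4559 to 6175 CPM in WT, with 2 of 10 called lower. KO replicate 2, the KO library with the lowest summed levels for the first 4 of these lists and the highest for the neural list, also had the lowest share of the mt-Nd3 pair on mt-Nd3 in its group. The order of marker sums within a group was that of the mitochondrial share for some lists and not for others. In KO the erythroid sums followed it, and in WT they did not. KO replicate 3, with the highest mitochondrial share (4.40%), had the highest macrophage, muscle and fat cell sums. KO replicate 1 had the highest fibroblast sum and the lowest mitochondrial share of its group (1.92%), and KO replicate 2, with the lowest sums, had 2.11%. WT replicate 1 had the highest macrophage, muscle and erythroid sums in WT and the lowest mitochondrial share (0.717%). The part of cell makeup in the mitochondrial counts was not tested. In bulk samples, more cells of a type and more RNA per cell cannot be told apart. Serial numbers in the column headers fall in separate ranges for KO and WT, so that any effect tied to them cannot be told apart from genotype.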

How the data were processed

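Raw read counts per gene, 1 column for each of the 6 libraries beside the merged exon length, are what the authors deposited, and per the file headers the layout is that of featureCounts. The submitters' processing notes name mm10 and DESeq2. How reads were aligned, which annotation was counted, whether strand was used and what became of reads with several alignments is not stated in any source used here. Replicate numbers follow accession order and pair nothing.

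All genes were fitted with edgeR 4.0.16 in R 4.3.3 (group as the single term, TMM scaling, filterByExpr defaults). SE is approximate: the size of the log2 fold change over the root of its F statistic. DESeq2 1.42.0, limma 3.58.1, other scalings and filters, and leaving out each library were alternatives. Of these fits only that of edgeR with its main settings was tested on simulated data. Shares used library totals, and permutation tests were exact and two-sided. Libraries differed beyond sampling noise (chi-square over degrees of freedom at least 10.2, lowest for WT replicates 2 and 3). GENCODE M21 (mm10) supplied identifiers and sequences and matched all 37 members. Nuclear copies were searched with BLAST. Every member was accounted for, and of each nuclear list up to 4 genes with the smallest p could be named. Members, lists and rules were chosen with earlier results of these data known.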

Additional observations from a re-analysis of the deposited data

How the results depend on the processing

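All 65 alternative values of the shares, percentages, ratios and the mt-Nd3 split kept their direction. The KO minus WT difference in the share of all mitochondrial genes was 1.83 percentage points, 1.91 with these genes left out of the denominator, 2.17 on TMM-scaled library sizes, and 1.03 to 2.27 with each library left out in turn. For protein-coding genes it was 1.74 with all 13 and 1.74 with the 7 outside mt-Co2 to mt-Nd4l, an alternative added after seeing the data. The number of mitochondrial genes called higher, 5 with edgeR, was 3 with RLE scaling, 13 with no low-count filter, 16 with DESeq2, 2 with limma-voom, and 0 to 16 with each library left out. Nuclear list members called lower were 2 with no low-count filter (0.943%, against 1.44% of all genes) and 16 with DESeq2 (7.55%, against 6.7%), and 0 to 37 with each library left out (17.5% at most, against 18.5%); those called higher were 0 to 4. Without composition scaling the median of all genes moved from -0.05 to -0.18, and that of the mitochondrial genes tested from 2.27 to 1.99. Siglece had a log2 fold change of -4.66, of -4.72 without composition scaling (adjusted p = 0.0513, edgeR), and of -9.13 to -4.14 with a library left out. The lowest was without KO replicate 2, which left KO at 0 counts, and the adjusted p was above 0.05 in the other 5 of these fits. Among single mitochondrial genes, mt-Tl2 changed sign, to 0.23 without WT replicate 1 (range with a library left out, -0.94 to 0.23). The cause of these changes was not tested. No paired analysis was possible because the labels carry no replicate numbers. The low-count filter kept 15 tRNA genes out of the comparison between KO and WT, and the part of depth in their low counts was not tested.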
